A study of Mus musculus with 21 samples.

Results

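The genes described here are 9 secreted defence proteins of the gut: the regenerating-family lectins Reg1, Reg3a, Reg3b, Reg3g and Reg4, the lysozymes Lyz1 and Lyz2, the ribonuclease Ang4 and the lectin Itln1. They were selected by gene symbol from a table of 24062 genes, by family membership, from a list drawn up with earlier results of these data in view. The tests below therefore describe these genes and are not independent evidence for their choice. Of the 9, 7 passed the filter on low counts and were among the 15936 genes tested. Reg1 and Reg3a did not pass.

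RNA was sequenced from the colon of C57BL/6 mice in 21 libraries, in 7 groups of 3. The groups were wild-type male normal colon, wild-type male tumour, App NL-G-F knock-in male normal colon, knock-in male tumour, wild-type female normal colon, wild-type female tumour and knock-in female normal colon. App NL-G-F mice carry Alzheimer's disease mutations in their own App gene. Tumour libraries are labelled as treated with AOM/DSS, a carcinogen (azoxymethane) followed by a colitis-inducing salt (dextran sulphate sodium). Normal libraries are labelled untreated, although the series text also speaks of normal tissue beside tumours, so whether a normal library came from a treated animal cannot be told apart from these labels. Tumours of knock-in females were not analysed here. Ages are not given in the sources used here, and no label says whether libraries came from separate animals, so p-values measure the spread between these samples. Library totals ran from 3414123 to 26174008 counts. These are bulk samples, in which fewer cells of a type and less RNA per cell cannot be told apart.

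Reg3 lectins bind bacterial cell walls and keep bacteria away from the epithelium. Their transcription is known to be driven by IL-22, IL-6 family cytokines and STAT3, and by MyD88 signalling in response to bacteria. Lyz1 and Ang4 are best known as products of Paneth cells, which lie in the small intestine and are normally sparse or absent in the colon, while Lyz2 is the lysozyme of macrophages and neutrophils. Reg4 marks secretory cells of the colon that include goblet-like cells at the crypt base, and Itln1 is a galactofuranose-binding lectin of goblet and Paneth cells.

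Because the assignment of reads to Lyz1 and Lyz2 limits what follows, the starts of the coding sequences are shown, 90 bases from the start codon, from GENCODE M21 (GRCm38). Capitals mark the 7 bases at which this stretch differs between the genes.
Lyz1: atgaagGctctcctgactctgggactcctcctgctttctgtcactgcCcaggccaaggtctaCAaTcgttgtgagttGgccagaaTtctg
Lyz2: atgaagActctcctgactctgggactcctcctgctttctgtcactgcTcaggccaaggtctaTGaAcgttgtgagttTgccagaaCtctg
The genes lie next to each other on the minus strand of chromosome 10 (Lyz1 at chr10:117287797-117292868, Lyz2 at chr10:117277331-117282321), and their coding sequences are 95.0% identical. Of 1214 windows of 50 bases along the longest coding transcript of Lyz1, 195 (16.06%) also occur in Lyz2, against 2.06% of windows of 100 bases. How reads that match both were counted is not given in the sources used here, so low values of either gene beside high values of the other are uncertain.

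The Reg3 pair lies in the Reg cluster of chromosome 6 (Reg3b at chr6:78370657-78373466, plus strand; Reg3g at chr6:78466269-78468872, minus strand). Their coding sequences are 76.0% identical and share no window of 50 bases, so their counts are separable. The same 90 bases are shown, with the 18 differing bases in capitals.
Reg3b: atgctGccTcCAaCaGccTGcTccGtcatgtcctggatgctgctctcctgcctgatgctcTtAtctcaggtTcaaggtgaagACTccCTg
Reg3g: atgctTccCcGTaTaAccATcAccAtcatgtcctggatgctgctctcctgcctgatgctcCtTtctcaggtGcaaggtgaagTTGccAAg

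Reg3b and Reg3g were low in most normal libraries, higher in tumours, and very uneven within groups. In CPM, the read count relative to the TMM-scaled library size, Reg3g was 1.65, 21.3 and 0.199 in wild-type male normal colon and 80.3, 30.8 and 4.42 in wild-type male tumours. It was 2.15, 7.72 and 2.16 in knock-in male normal colon and 8.51, 15.3 and 86.4 in knock-in male tumours. In wild-type females it was 2.75, 2.79 and 0.310 in normal colon and 15.3, 136.6 and 100.6 in tumours. Knock-in female normal colon had 1.01, 0.225 and 0.383. The male wild-type groups overlapped, because normal replicate 2 was above tumour replicate 3. Knock-in males and wild-type females had every tumour above every normal library, as for 16.1% and 29.9% of all tested genes. In knock-in males the gap was narrow, from 7.72 to 8.51 CPM. Reg3g rose in tumours of wild-type females by 5.30 on the log2 scale (SE 1.50, adjusted p = 0.00880, edgeR). In wild-type males the log2 difference was 2.33 (SE 1.27, adjusted p = 0.168), and in knock-in males 3.13 (SE 1.33, adjusted p = 0.106). The call in wild-type females was lost when the libraries with running numbers of 152 and above were fitted as a covariate (2.87, adjusted p = 0.121). Wild-type female tumour replicates 2 and 3, the higher of that group, carry such numbers. So does knock-in male tumour replicate 3, the highest of its group.

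Reg3b followed Reg3g at a lower level. It was 0.236, 10.6 and 0 CPM in wild-type male normal colon and 25.4, 5.24 and 0.368 in wild-type male tumours. Knock-in males had 0.280, 2.47 and 0.519 in normal colon and 4.02, 3.19 and 30.7 in tumours. Wild-type females had 1.82, 0.836 and 0 in normal colon and 12.8, 27.8 and 25.0 in tumours. Knock-in female normal colon stood at 0.0595, 0.225 and 0.459. The same libraries were high and low as for Reg3g: normal replicate 2 and tumour replicate 1 in wild-type males, and tumour replicate 3 in knock-in males. Reg3b rose in tumours of wild-type females by 4.33 on the log2 scale (SE 1.61, adjusted p = 0.0357). The call was lost in 5 of 6 fits that left out a library, all but the one without tumour replicate 1 (log2 differences of 3.92 to 5.62 over the 6), and in 3 of 9 other alternatives: with no filter, with the replicate block and with the running-number covariate (adjusted p = 0.165 at most). The log2 difference was 1.58 (SE 1.40, adjusted p = 0.405) in wild-type males, turning to -0.71 without tumour replicate 1, and 3.42 (SE 1.54, adjusted p = 0.126) in knock-in males. Wild-type male normal replicate 2 set the male wild-type values: without it the tumour difference was 6.03 for Reg3b (adjusted p = 0.0260) and 5.14 for Reg3g (adjusted p = 0.0225).

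Across the 21 libraries log2 CPM of Reg3b and Reg3g correlated with Pearson's r = 0.95 (Spearman's rho = 0.95), and their deviations from group means with r = 0.90. The points share libraries and fall into tumour and normal groups, so these are descriptions. The plot of pairs of members shows the same libraries at both ends. Among other tested genes the most like Reg3g over the 21 libraries were Tmem147 (r = 0.91), Pgam5 (r = 0.90) and Itga2 (r = 0.90), and the most like Reg3b were Dirc2 (r = 0.88), Zfp422 (r = 0.86) and Pgam5 (r = 0.86).

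**Figure D1:**
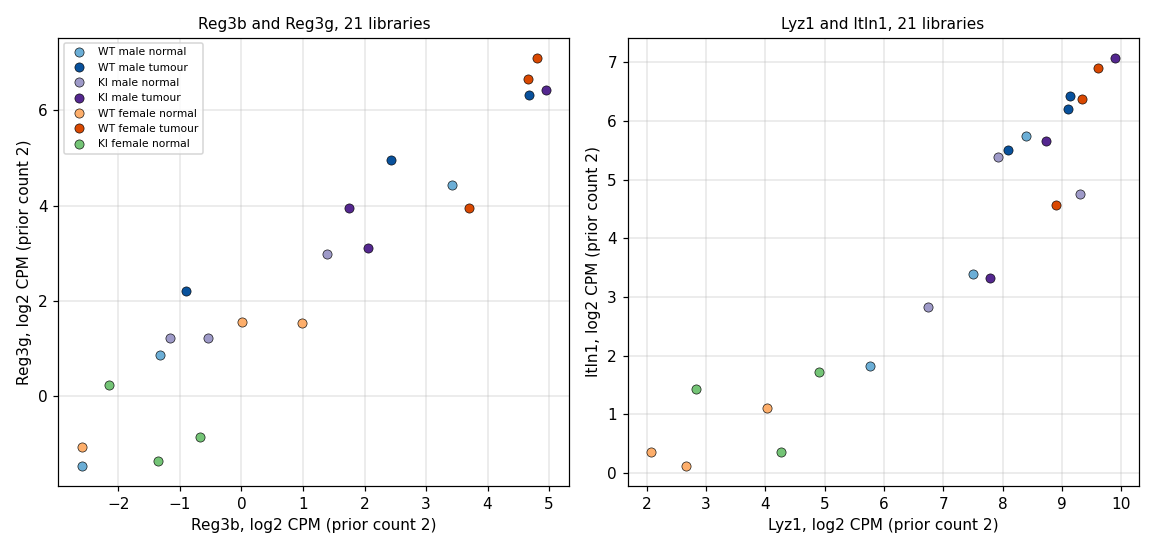
Log2 CPM of Reg3g against Reg3b (left) and of Itln1 against Lyz1 (right), 1 point per library (21) and 1 colour per group. Reg3b and Reg3g rise together over the libraries (r = 0.95), and in the right panel the 6 female normal libraries form the low end (r = 0.94).

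The 150 bases before the RefSeq start sites (GRCm38.p6) of these 2 genes are shown because their levels moved together. Reg3b is at chr6:78370735-78370884 (plus strand) and Reg3g at chr6:78468875-78469024 (minus strand). RefSeq and GENCODE place the start of Reg3b differently. The whole Reg3b stretch lies inside the gene as placed by GENCODE above. Capitals mark the STAT-type pattern TTCNNNGAA and the TATA pattern TATAAA, both searched on both strands.
Reg3b: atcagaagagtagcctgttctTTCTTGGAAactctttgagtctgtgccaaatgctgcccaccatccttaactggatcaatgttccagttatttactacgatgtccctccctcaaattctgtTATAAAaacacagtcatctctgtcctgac
Reg3g: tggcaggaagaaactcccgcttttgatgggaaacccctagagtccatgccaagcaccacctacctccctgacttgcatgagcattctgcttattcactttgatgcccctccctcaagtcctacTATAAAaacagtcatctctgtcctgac
RefSeq windows of 300 bases (250 before the start, 50 after) were matched for all 9 genes. TTCNNNGAA occurred in the windows of Reg3b, 129 bases before the RefSeq start, and Ang4, and in 8.3% of all 32851 windows. TATAAA occurred in those of Reg1, Reg3b and Reg3g, and in 13.6% of all windows. A match describes the letters only.

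The other regenerating-family lectins of this set were close to absent. Reg1 had 10 counts and Reg3a 7 counts over all 21 libraries, with no library above 3, the number of counts that a count of 0 allows. The pancreatic members Reg2 and Reg3d were no higher. Extl3, described as a receptor of Reg proteins, rose in wild-type male tumours by 0.46 (SE 0.12, adjusted p = 0.00757) and in wild-type female tumours by 0.96 (SE 0.13, adjusted p = 7.50e-06) on the log2 scale.

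Reg4 went the other way in wild-type animals. It was 149.8, 356.4 and 194.4 CPM in wild-type male normal colon and 61.0, 79.4 and 73.4 in wild-type male tumours. Every tumour was below every normal library, as for 26.4% of all tested genes. Reg4 fell by 1.72 on the log2 scale (SE 0.42, adjusted p = 0.00493), a 3.29-fold lower level, and the call held in all 8 other alternatives and without each of the 6 libraries. It was the 1 member of 7 called in this comparison, against 35.7% of all tested genes.

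In wild-type females Reg4 was 314.4, 414.1 and 162.0 CPM in normal colon and 128.5, 197.0 and 98.6 in tumours, with tumour replicate 2 above normal replicate 3. It fell by 1.07 (SE 0.41, adjusted p = 0.0391), a call lost without normal replicate 1 or 2 or without tumour replicate 1 or 3 (log2 differences of -1.39 to -0.76), and with library totals, no filter or the running-number covariate. Knock-in males had 401.4, 269.1 and 193.9 in normal colon and 275.2, 181.8 and 102.3 in tumours, which overlapped; the log2 difference was -0.63 (SE 0.40, adjusted p = 0.279).

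Reg4 was also the only member called between genotypes. Knock-in male tumours were all above wild-type male tumours, as for 20.3% of all genes. The log2 difference was 1.39 (SE 0.41, adjusted p = 0.0366). This call was lost without any 1 of the 3 wild-type tumours or of knock-in tumour replicates 1 and 2 (0.96 to 1.69 over the 6 libraries left out), and with voom weights, no filter or only the compared groups. Reg4 was the 1 member of 7 called, against 14.5% of all genes, so the count was near the share over all genes. Lyz2 was not called (-0.65, SE 0.31, adjusted p = 0.158). It was lower in every knock-in than in every wild-type male tumour, as were 16.1% of all genes. In female normal colon the direction for Reg4 was opposite. Knock-in libraries held 112.8, 117.5 and 117.0 CPM, all below the wild-type ones, as for 18.2% of all genes. Reg4 fell by 1.36 (SE 0.41, adjusted p = 0.0342), again 1 of 7 members against 16% of all genes; the call held only without wild-type replicate 3 among the 6 libraries left out (-1.65 to -1.05). In male normal colon no member was called (0.0126% of all genes, 2 of 15936; 532 genes and 0 members had an unadjusted p under 0.05), and Reg4 differed by 0.30 (SE 0.40, adjusted p = 1.00), or by -0.028 without knock-in replicate 1. The difference between these genotype effects in females and males was -1.66 (SE 0.57, adjusted p = 0.138), and the difference between the tumour effects in knock-in and wild-type males was 1.09 (SE 0.57, adjusted p = 0.242). No member was called in either test (2.54% and 1.51% of all genes; 1 and 0 members with an unadjusted p under 0.05).

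Goblet cell markers moved with Reg4. Of 10 listed, 8 fell in tumours of wild-type males, 6 in those of knock-in males and 8 in those of wild-type females. Over all genes 19.3%, 9.97% and 24% fell. Between genotypes, 3 were higher in knock-in than wild-type male tumours (9.3% of all genes). In female normal colon 7 were lower in knock-in than wild-type animals (7% of all genes). The summed level of goblet cell markers was 3171 to 4434 CPM in wild-type male tumours and 5385 to 13374 in knock-in male tumours. None was at 0 in any group. Muc2, the main mucin of the colon, was among the genes most like Reg4 (r = 0.91 over 21 libraries), after Nov (r = 0.93) and Slc12a8 (r = 0.92). Muc2 differed between knock-in and wild-type by 1.38 in male tumours (SE 0.44, adjusted p = 0.0466) and by -1.99 in female normal colon (SE 0.45, adjusted p = 0.00799). Smooth muscle markers also differed in female normal colon. They summed to 6393 to 9011 CPM in knock-in and 1853 to 4299 in wild-type libraries, without overlap. Of 6, 2 were called higher in knock-in animals (8.97% of all genes). Markers of crypt-base secretory cells other than Reg4 were mixed. Of 3 tested, 1 rose and 1 fell in each of the 3 tumour comparisons. In wild-type males Cd44 averaged 150.6 CPM in normal colon and 360.4 in tumours, while Kit averaged 76.2 and 27.0. The remaining marker, Spink4, was also among the 10 goblet cell markers. The part of goblet, crypt-base and muscle markers in the Reg4 differences was not tested.

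**Figure D2:**
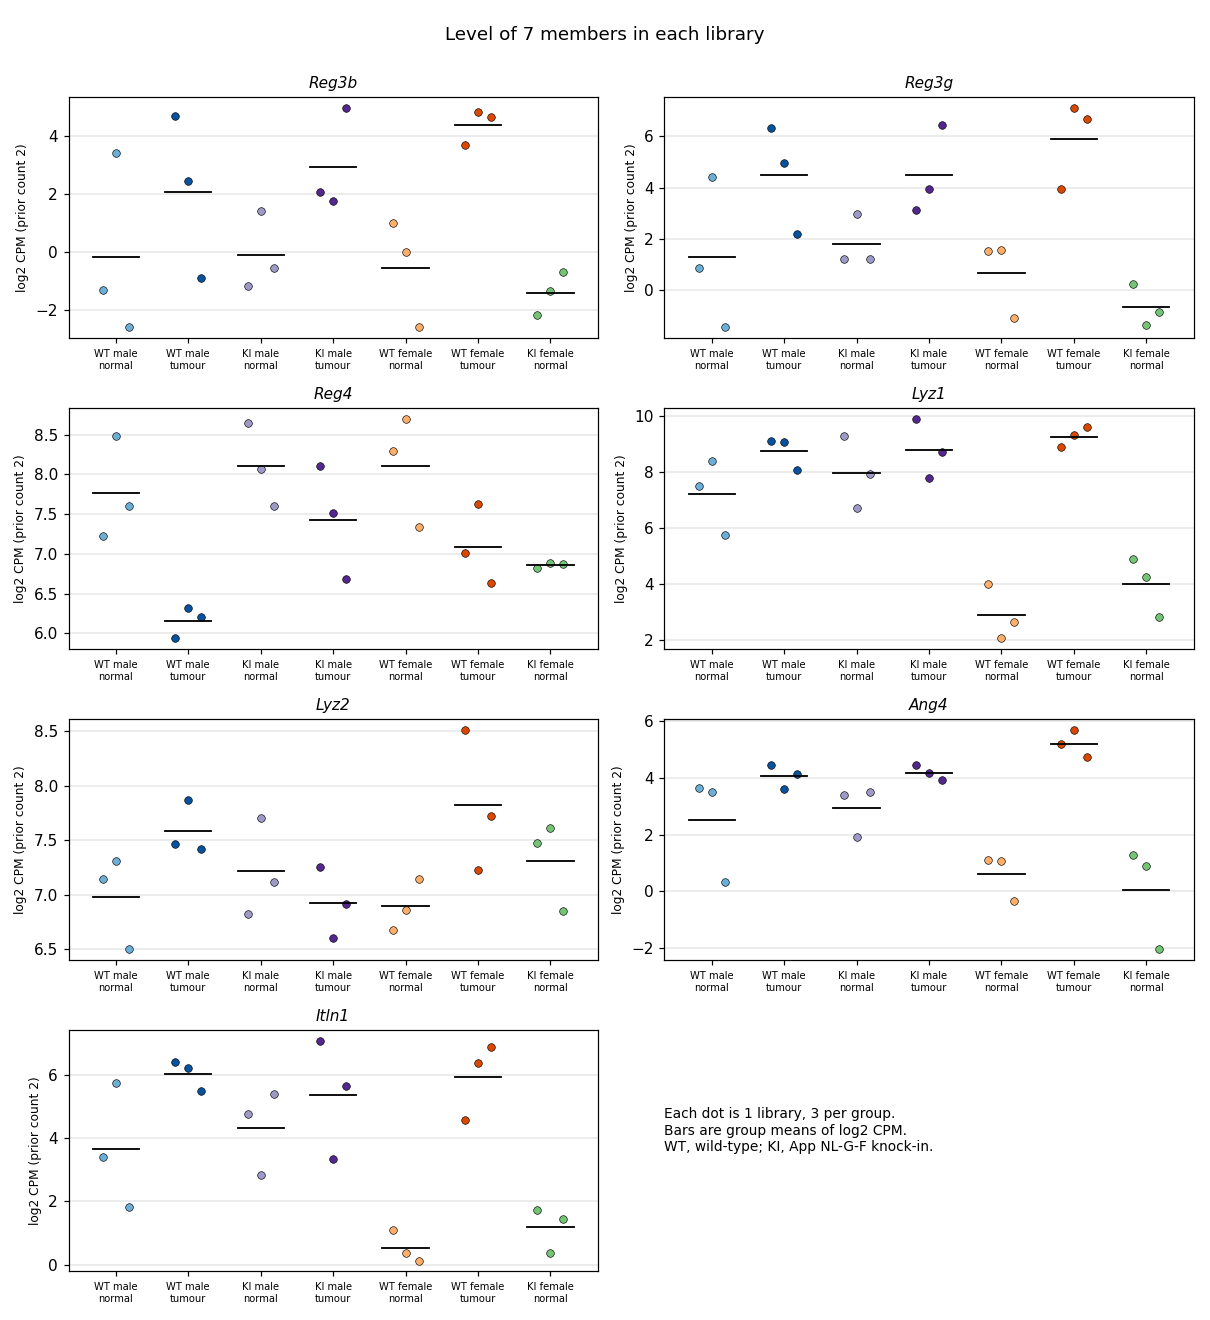
Log2 CPM (prior count 2) of the 7 tested members in each of the 21 libraries, grouped by genotype, sex and tissue; dots are libraries and bars are means of log2 CPM. Lyz1, Ang4 and Itln1 have their lowest means in female normal colon, and Reg4 has its lowest mean in wild-type male tumours.

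Lyz1, Ang4 and Itln1 had their lowest group means in female normal colon of both genotypes, as did Reg3b and Reg3g. Lyz1 was 16.1, 4.04 and 6.19 CPM in wild-type and 29.8, 19.0 and 6.97 in knock-in female normal colon. Male normal colon held 181.1, 338.2 and 54.3 in wild-type and 634.0, 107.2 and 243.7 in knock-in animals. Tumours held 562.7, 547.7 and 273.2 in wild-type males, 955.7, 221.2 and 425.0 in knock-in males, and 478.0, 646.0 and 779.8 in wild-type females. The highest of the 6 female normal libraries (29.8) was below the lowest of the other 15 (54.3). Lyz1 and Itln1, 2 of 7 members, separated those libraries in this way, as did 0.891% of tested genes. For Itln1 the gap was narrow, from 3.15 to 3.38 CPM. The split pools male normal colon with all tumours and was not among the pairwise comparisons. It matches the groups in which these members had their lowest means, so these shares are descriptions and not evidence of enrichment.

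Itln1 was 1.99, 1.11 and 0.929 CPM in wild-type and 3.15, 1.12 and 2.53 in knock-in female normal colon. In male normal colon it was 10.3, 53.1 and 3.38 (wild-type) and 26.9, 6.96 and 41.8 (knock-in). In tumours it was 85.3, 73.6 and 45.3 in wild-type males, 134.0, 9.88 and 50.4 in knock-in males, and 23.6, 82.9 and 119.1 in wild-type females. The lowest male library, wild-type normal replicate 3, came close to the female normal range.

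Ang4, a ribonuclease that kills gut bacteria, was 1.99, 1.95 and 0.619 CPM in wild-type and 2.26, 1.69 and 0.0766 in knock-in female normal colon. Male normal colon held 12.4, 11.2 and 1.09 (wild-type) and 10.3, 3.61 and 11.2 (knock-in). Tumours held 21.5, 11.9 and 17.5 in wild-type males, 21.7, 17.9 and 15.0 in knock-in males, and 36.3, 51.0 and 26.4 in wild-type females. Here wild-type male normal replicate 3 lay inside the female normal range.

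All 7 tested members were called in tumours against normal colon of wild-type females, 6 higher and Reg4 lower, where 49.1% of all genes were called. The same 6 were above normal colon in every library, as were 29.9% of all genes. Lyz1 rose by 6.06 on the log2 scale (SE 0.95, adjusted p = 9.85e-05), Itln1 by 5.62 (SE 1.24, adjusted p = 0.00155) and Ang4 by 4.54 (SE 0.79, adjusted p = 2.01e-04). These 3 calls held in every alternative run and without each of the 6 libraries. The sum of Lyz1 and Lyz2 rose by 2.77 (adjusted p = 2.20e-04). That sum does not depend on which gene a shared read was given to. It mixes in Lyz2, however, and would still lack shared reads that were discarded.

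In males none of the 3 was called. The Lyz1 tumour difference was 1.27 (SE 0.76, adjusted p = 0.212) in wild-type and 0.70 (SE 0.75, adjusted p = 0.528) in knock-in males, where it was -0.067 without tumour replicate 1. For Ang4 it was 1.04 (SE 0.66, adjusted p = 0.238) and 1.13 (SE 0.66, adjusted p = 0.231), and for Itln1 1.61 (SE 0.95, adjusted p = 0.203) and 1.37 (SE 0.94, adjusted p = 0.312). Without wild-type male normal replicate 2, Itln1 differed by 3.24 (adjusted p = 0.0284). No member was called in knock-in males (20.4% of all genes; 2 members, Reg3b and Reg3g, and 5716 genes had an unadjusted p under 0.05; DESeq2 and voom called 0 members too).

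**Figure D3:**
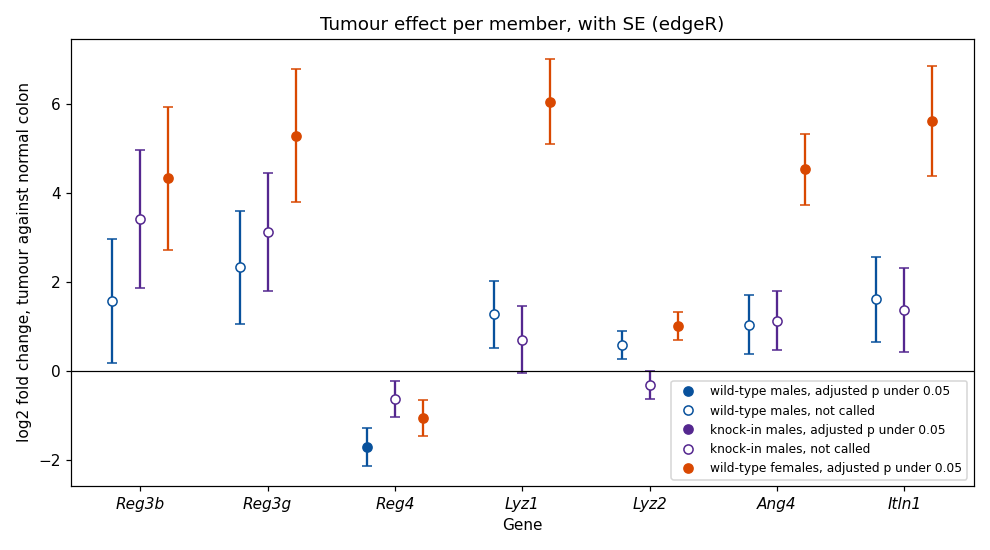
Log2 fold change of tumour against normal colon for 7 members (edgeR, bars are SE) in wild-type males, knock-in males and wild-type females; filled points have an adjusted p under 0.05. In wild-type females Lyz1, Itln1, Reg3g, Ang4 and Reg3b lie above 4 (6.06, 5.62, 5.30, 4.54 and 4.33), and Reg4 is the member below 0 in all 3 sets along with Lyz2 in knock-in males.

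The difference between the tumour effects in wild-type females and males was tested directly. It was 4.80 for Lyz1 (SE 1.14, adjusted p = 0.0575), 3.50 for Ang4 (SE 1.01, adjusted p = 0.105) and 4.02 for Itln1 (SE 1.52, adjusted p = 0.234). No member passed, against 1.12% of all genes (2198 genes and these 3 members had an unadjusted p under 0.05). Lyz1 passed under 4 alternatives: library totals (adjusted p = 0.0430), DESeq2's Wald test (9.30e-04), voom weights (0.00549) and a fit of the compared groups only (0.0448). Ang4 passed under DESeq2's Wald test (0.0447) and voom weights (0.0298). Without wild-type male normal replicate 3 both passed, Lyz1 at 5.23 (adjusted p = 0.0219) and Ang4 at 3.99 (adjusted p = 0.0159). For the sum of Lyz1 and Lyz2 the difference was 1.74 (adjusted p = 0.222).

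Normal colon was also compared between the sexes. In wild-type normal colon 3 of 7 members were called lower in females, as were 10.2% of all genes (15.9% called in either direction). They were Lyz1 by 4.33 on the log2 scale (SE 0.89, adjusted p = 0.00492), Itln1 by 3.87 (SE 1.21, adjusted p = 0.0414) and Ang4 by 2.37 (SE 0.77, adjusted p = 0.0468). Lyz1 kept its call without each library, but the sum of Lyz1 and Lyz2 was not called (-1.32, adjusted p = 0.0643). Itln1 and Ang4 lost theirs in 5 of 6 such fits, all but the one without male replicate 3 (-4.43 to -2.24 for Itln1 and -2.86 to -1.98 for Ang4), and each lost it in 3 of 8 other alternatives, the fit with no filter among them. Of these, 2 members lay below the male range in every library, as did 17.4% of all genes. In knock-in normal colon 1 of 7 was called, against 0.584% of all genes: Lyz1, by -4.13 (SE 0.86, adjusted p = 0.0498). That call was lost without any library but male replicate 2, and in 6 of 8 other alternatives, with log2 differences of -4.57 to -1.41. Ang4 differed there by -2.60 (SE 0.77, adjusted p = 0.120) and Itln1 by -3.39 (SE 1.12, adjusted p = 0.161). In that comparison 5 of 7 members were below the male range in every library, as were 9.7% of all genes. Levels of the proximal colon marker Slc37a2 and of absorptive cell markers differed between these libraries. The summed level of 4 proximal colon markers, nearly all of it Slc37a2, was 177.6 to 256.2 CPM in wild-type and 134.6 to 333.0 in knock-in female normal colon, against 35.7 to 58.2 in knock-in male normal colon. Wild-type male normal colon held 68.2, 36.8 and 265.4. Its replicate 3, which was lowest among males for Lyz1, Ang4 and Itln1, thus lay within the female range of this sum. The other proximal markers did not all share the direction of Slc37a2. Mean Car3 was lower in females of both genotypes. Mean Hoxb8 was lower in wild-type but higher in knock-in females, and mean Hoxb6 the reverse. The median log2 difference of the 4 markers, female against male, was -0.847 in wild-type and 0.375 in knock-in normal colon. Absorptive colonocyte markers summed to 3278 to 6417 and 3636 to 4005 in wild-type and knock-in female normal colon, 1524 to 2242 in knock-in males, and 1995, 2021 and 4082 in wild-type males. None of the 4 proximal, 3 distal or 7 absorptive markers tested was called in either sex comparison of normal colon, and distal markers overlapped between the sexes (249.2 to 438.6 over the 12 normal libraries). The part of colon position or absorptive cells in the sex differences was not tested.

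Between female and male wild-type tumours no member was called (0.86% of all genes; Reg4 and 3350 genes in all had an unadjusted p under 0.05; DESeq2 and voom called 0 members too).

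Lyz2 was called in none of the comparisons within normal colon. It was 102.1, 116.1 and 141.2 CPM in wild-type and 177.9, 195.3 and 115.1 in knock-in female normal colon, and 141.4, 158.1 and 90.2 in wild-type and 113.1, 208.3 and 138.6 in knock-in male normal colon. Tumours held 176.7, 234.3 and 170.9 in wild-type males, 152.4, 97.3 and 120.2 in knock-in males, and 364.8, 150.1 and 210.7 in wild-type females. It rose in tumours of wild-type females by 1.01 (SE 0.31, adjusted p = 0.0129), a call lost without normal replicate 1 or tumour replicate 1 (0.59 to 1.26 over the 6 libraries left out). Its sex difference in wild-type normal colon was -0.12 (SE 0.31, adjusted p = 0.833), or 0.035 without male replicate 2. Lyz1 and Lyz2 correlated with r = 0.35 over the 21 libraries, against 0.94 for Lyz1 and Itln1 and 0.90 for Lyz1 and Ang4.

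As a share of the counts of both lysozymes, Lyz1 made up 3.36% to 13.7% in wild-type and 5.71% to 14.3% in knock-in female normal colon. In male normal colon the share was 37.6% to 68.2% (wild-type) and 34.0% to 84.9% (knock-in), and in tumours 56.7% to 86.2% over the 3 groups. The lysozyme promoters are shown because the pair differed in this way. Their windows of 300 bases are 82.5% identical when aligned, and the stretch nearest the start is more alike. RefSeq and GENCODE place the start of Lyz2 differently, so part of its stretch lies inside the gene as placed by GENCODE above. Shown are the 100 bases before the RefSeq start (GRCm38.p6, minus strand), with the 8 differing bases in capitals. Lyz1 is at chr10:117292869-117292968 and Lyz2 at chr10:117282273-117282372.
Lyz1: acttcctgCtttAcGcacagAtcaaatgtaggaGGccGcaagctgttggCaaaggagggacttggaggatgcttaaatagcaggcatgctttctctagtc
Lyz2: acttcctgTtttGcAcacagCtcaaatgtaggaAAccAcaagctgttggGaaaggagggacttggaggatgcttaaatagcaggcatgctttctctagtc
Reads shared by the genes could add Lyz2 signal to Lyz1, and their part in the low female values was not tested.

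Per kilobase of the longest coding transcript, the order of mean levels differed by group. In wild-type female tumours Lyz1 (502 ± 120 CPM per kb, SD, n = 3) was above Lyz2 (184 ± 84.1), Reg4 (138 ± 49.4), Reg3g (109 ± 80.8), Itln1 (65.9 ± 42.2), Ang4 (53.5 ± 17.4) and Reg3b (27.9 ± 10.2), and the neighbours from Lyz2 to Ang4 were within their SDs. In wild-type female normal colon Reg4 (291 ± 124) led Lyz2 (91.0 ± 15.1), and the other 5 were at 6.96 or below.

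Paneth cell markers were followed beside Lyz1, Ang4 and Itln1. Of 13 listed without Lyz1, 11 were in the table and 6 were tested. Of these 6, 4 rose in tumours of wild-type females (25% of all genes rose). None was called in tumours of wild-type or knock-in males (35.7% and 20.4% of all genes called). Between the sexes 1 was lower in females in wild-type normal colon (10.2% of all genes lower). None was called in knock-in normal colon (0.584% of all genes called). Their summed level was 0.619 to 3.42 CPM in wild-type female normal colon and 0.230 to 7.62 in knock-in female normal colon, with 8 of 11 at 0 in each. It was 3.88 to 113.1 and 34.4 to 109.8 in wild-type and knock-in male normal colon, and 94.1 to 395.8 in tumours. Most of it was Mmp7, the matrix metalloproteinase that activates alpha-defensins in mice. Mmp7 rose in tumours of wild-type females by 7.39 (SE 1.17, adjusted p = 1.09e-04), was lower in female than male wild-type normal colon by 4.46 (SE 1.08; log2 difference -4.46, adjusted p = 0.0131), and was among the genes most like Ang4 (r = 0.95). Its tumour differences in wild-type and knock-in males were 2.19 (SE 0.87, adjusted p = 0.0633) and 1.47 (SE 0.85, adjusted p = 0.231), and its sex difference in knock-in normal colon -4.29 (SE 1.03, adjusted p = 0.0750). The 8 listed alpha-defensins summed to 7, 0 and 0 counts in wild-type and 1, 0 and 0 in knock-in female normal colon. They summed to 53, 185 and 1 counts in wild-type and 267, 25 and 413 in knock-in male normal colon, so wild-type male replicate 3 (0.0995 CPM) lay below the highest female library (0.296 CPM). In wild-type males the defensins summed to 0.0995 to 13.9 CPM (median 2.50) in normal colon and 8.93 to 23.0 (median 15.2) in tumours. In knock-in males they summed to 1.58 to 35.7 (median 25.0) and 1.66 to 87.3 (median 6.85). These ranges overlapped within both male genotypes. Wild-type female tumours held 3.12 to 24.2. The part of Paneth-like cells was not tested.

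The genes most like Lyz1 over the 21 libraries were Habp2 (r = 0.99), Slc30a2 (r = 0.97) and Prkg2 (r = 0.97). Those most like Ang4 were R3hdml (r = 0.95), Mmp7 and Mdga2 (r = 0.94), and those most like Itln1 were Gdf11, Wif1 and Esyt3 (r = 0.96 each). For Lyz2 they were Snord89 (r = 0.83), Clstn3 (r = 0.81) and Ccr7 (r = 0.80).

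**Figure D4:**
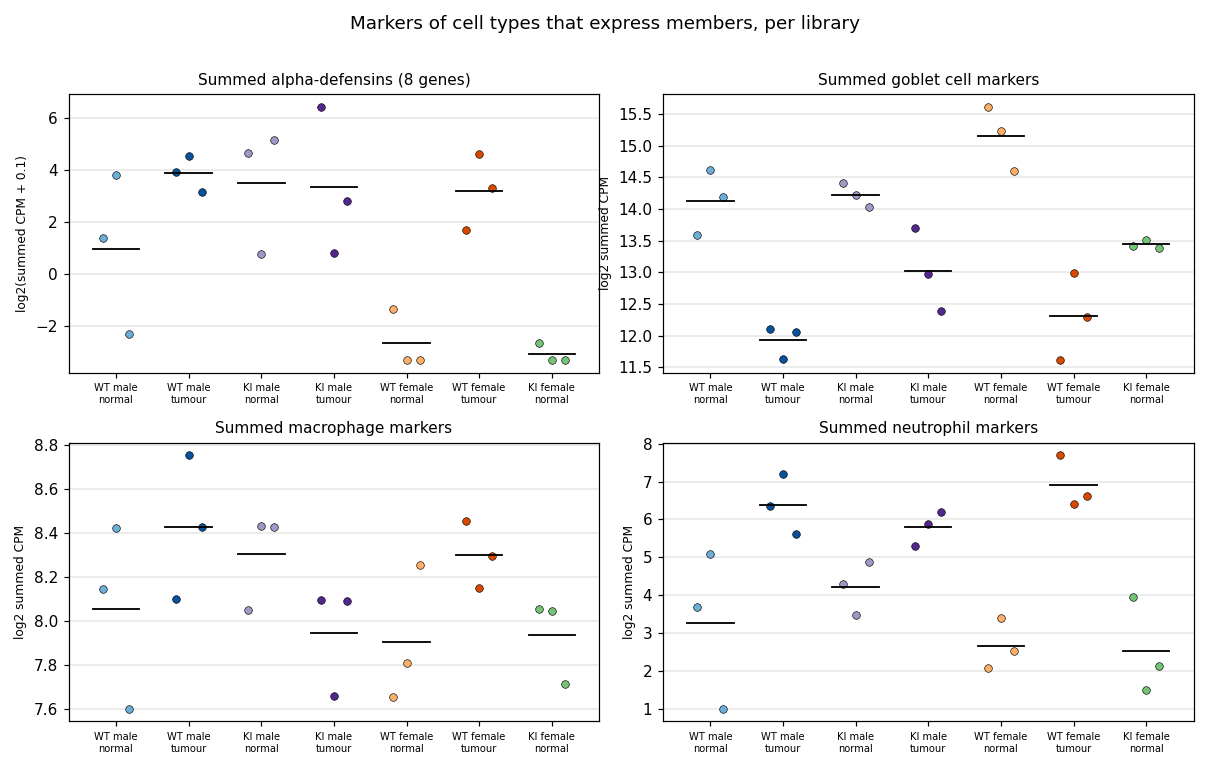
Summed CPM of 8 alpha-defensins (with 0.1 added before the log) and of goblet cell, macrophage and neutrophil markers in each library, on log2 axes; dots are libraries and bars are means of the log2 values. Defensins are lowest in the 6 female normal libraries along with wild-type male normal replicate 3, and goblet cell markers are lower in tumours than in the matching normal colon.

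Myeloid markers bear on Lyz2 and on the Reg3 genes. Of 9 tested macrophage markers, 2 rose and 1 fell in tumours of wild-type males and of wild-type females, and none was called in knock-in males, against 35.7%, 49.1% and 20.4% of all genes called in those comparisons. Of 7 tested neutrophil markers, 3, 0 and 7 rose in wild-type males, knock-in males and wild-type females (16.5%, 10.4% and 25% of all genes). Their sum was 84.9 to 207.1 CPM in wild-type female tumours against 4.18 to 10.6 in the matching normal colon. It was 49.0 to 147.3 against 1.99 to 33.6 in wild-type males, and 39.4 to 73.3 against 11.1 to 29.1 in knock-in males. The part of myeloid markers in the Lyz2 and Reg3 values was not tested. All 6 smooth muscle markers fell in the 3 tumour comparisons. Pancreatic acinar markers summed to at most 7.57 CPM and small intestine absorptive markers to at most 33.7 CPM in any library.

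Of 14 tested signal genes upstream of Reg3, 5 rose and 3 fell in tumours of wild-type males (median log2 difference 0.48, against 0.01 over all genes), 1 and 1 in knock-in males (0.26, against 0.01) and 7 and 4 in wild-type females (0.41, against 0.01). Of all genes, 35.7%, 20.4% and 49.1% were called in those comparisons. Stat3, the transcription factor downstream of IL-22 and IL-6, rose by 0.34 (SE 0.12, adjusted p = 0.0346) in wild-type males, with 0.08 (SE 0.12, adjusted p = 0.627) in wild-type females. Il6st, the shared receptor subunit of the IL-6 family, rose by 0.53 (SE 0.12, adjusted p = 9.53e-04) in wild-type females. Il22ra1, the epithelial IL-22 receptor, fell by 1.07 (SE 0.22, adjusted p = 0.00118) in wild-type males and by 1.45 (SE 0.22, adjusted p = 3.39e-05) in wild-type females. Tlr4, the receptor for bacterial lipopolysaccharide, fell by 0.65 (SE 0.23, adjusted p = 0.0304) in wild-type males and by 0.95 (SE 0.22, adjusted p = 0.00166) in wild-type females. Il11, an IL-6 family cytokine named after its values were seen, rose in all 3 comparisons, by 2.27, 3.58 and 6.12 (adjusted p = 0.0308, 0.0115 and 9.08e-05).

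Among the other secreted antimicrobial and barrier genes, of which 17 were tested, 4 rose and 6 fell in tumours of wild-type males (median log2 difference -0.81), 1 and 4 in knock-in males (-0.02) and 4 and 7 in wild-type females (-0.39). The shares of all genes called there were 35.7%, 20.4% and 49.1%. The 4 most abundant were Dmbt1, Lypd8, Pigr and Zg16, which bind bacteria or carry antibodies into the lumen, and all 4 fell in tumours of wild-type males and females. Zg16, a goblet cell lectin, fell by 3.48 (SE 0.53, adjusted p = 1.76e-04) and 4.52 (SE 0.56, adjusted p = 9.04e-06). In male tumours 5 of the 17 were higher in knock-in animals (9.3% of all genes), these 4 among them. In female normal colon 6 were lower (7% of all genes).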

How the data were processed

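Total RNA of mouse colon was depleted of ribosomal RNA, reverse transcribed with random hexamers and sequenced, per the labels' protocols. The authors deposited raw counts per gene, which per the submitters' processing notes came from Trimmomatic, HISAT2 and featureCounts on mm10; the annotation, strand setting and handling of shared reads are not given in the sources used here. In the knock-in female normal group 2 columns carry the same name and were used as unnumbered replicates a and b. The authors' DESeq2 table was not used here.

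Counts were tested with edgeR 4.0.16 (R 4.3.3): TMM scaling, filterByExpr, and the robust quasi-likelihood fit over all 21 libraries. There were 9 pairwise comparisons and 3 interactions, two-sided, with Benjamini-Hochberg adjustment over 15936 genes and a threshold of 0.05. SE is the fold change divided by the root of F. Log2 CPM used a prior count of 2. Replicate pairs all differed beyond sampling noise. The code was tested on simulated data. Replicate numbers deviated together in wild-type males (tumour against normal; correlations 0.17, 0.17 and 0.21), so by the rule they pair there, from the data and not the labels; a replicate block changed no call of a member there. Alternatives used DESeq2 1.42.0 and limma 3.58.1. All members are named; genes like a member are the 3 with the highest r, and from each list up to 4 genes are named, from its 4 most abundant ones, with Il11 and Extl3 added. Members and lists were chosen with earlier results of these data known.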

Additional observations from a re-analysis of the deposited data

How the results depend on the processing

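The number of members called moved as follows. Tumour against normal colon gave 1 in wild-type males and 2 with voom weights (1 to 4 with a library left out, 4 without normal replicate 2), and 7 in wild-type females but 4 with running numbers of 152 and above as a covariate (4 to 6 with a library left out, 4 without normal replicate 1). Knock-in against wild-type gave 1 in male tumours and 0 with no filter, voom weights or only the compared groups (0 to 1 with a library left out), and 1 in female normal colon and 0 with no filter (0 to 1). Female against male gave 0 in wild-type tumours and 1 with only the compared groups. It gave 3 in wild-type normal colon and 1 with no filter (1 to 3). In knock-in normal colon it gave 1, with 0 under DESeq2 size factors, library totals, no filter or the running-number covariate, 2 with voom weights and 4 with DESeq2's Wald test (0 to 2). The interaction of tumour with sex gave 0, with 1 under library totals or only the compared groups and 2 under DESeq2's Wald test or voom weights (0 to 2). That of genotype with sex gave 0, and 1 under DESeq2's Wald test or voom weights. The cause was not tested, except that leaving out libraries leaves fewer samples.

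With the replicate number as a block, 2 calls were lost: Reg3b in tumours of wild-type females (4.27, adjusted p = 0.0742) and Itln1 between the sexes in wild-type normal colon (-3.97, adjusted p = 0.0888); the block changed no other call of a member, and those numbers do not pair samples there. Summing Lyz1 and Lyz2 left a sex difference of -1.32 (adjusted p = 0.0643) in wild-type normal colon, since Lyz2 dominates that sum in females. Low counts limit what can be said of Reg1 and Reg3a, and of Reg3b, Reg3g, Ang4 and Itln1 in female normal colon.

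No called value changed sign. Of 1325 alternative values of single members, 87 had the opposite sign to the reported log2 difference, 65 of them with a library left out, and none was called in either fit. With voom weights the sign turned for knock-in against wild-type male tumours in Reg3g (0.62), Lyz1 (-0.011) and Ang4 (-0.089), and for male normal colon in Reg3b (0.0088), Reg3g (0.19) and Lyz2 (-0.072). It also turned for the sex difference of Reg3b in wild-type normal colon (0.86) and for genotype with sex in Lyz1 (-0.64) and Itln1 (-0.27). With the running-number covariate it turned for Reg3b between genotypes in male tumours (-1.13), for Reg3b (-0.38), Reg3g (-1.31) and Itln1 (-0.50) between sexes in wild-type tumours, and for tumour with genotype in Reg3g (-0.83). The replicate block turned Ang4 between genotypes in male normal colon (0.14) and for tumour with genotype (-0.12). Summed with its partner, Lyz2 turned in knock-in male tumours against normal colon (0.45), between genotypes in male tumours (0.0055), between sexes in knock-in normal colon (-1.41) and, as did Lyz1, for genotype with sex (-0.087); Reg3b turned between genotypes in male tumours (-0.015).

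With a library left out, the ranges that crossed 0 were these. Tumour against normal colon: -0.71 to 6.03 for Reg3b in wild-type males and -0.067 to 1.57 for Lyz1 in knock-in males. Genotype in male tumours: -1.57 to 2.45 for Reg3b, -1.71 to 1.13 for Reg3g, -0.55 to 0.56 for Lyz1, -0.11 to 0.25 for Ang4 and -1.22 to 0.42 for Itln1. Genotype in male normal colon: -3.14 to 2.84 for Reg3b, -1.86 to 1.92 for Reg3g, -0.028 to 0.74 for Reg4, -0.14 to 1.47 for Lyz1, -0.056 to 0.40 for Lyz2, -0.51 to 0.38 for Ang4 and -0.42 to 1.81 for Itln1. Genotype in female normal colon: -1.04 to 0.31 for Ang4. Sex in wild-type tumours: -0.10 to 0.57 for Lyz2 and -0.35 to 0.57 for Itln1. Sex in normal colon: -3.01 to 2.72 for Reg3b, -2.39 to 0.96 for Reg3g and -0.32 to 0.035 for Lyz2 in wild-type animals, and -0.092 to 0.37 for Lyz2 in knock-in animals. Tumour with genotype: -2.64 to 4.10 for Reg3b, -2.05 to 2.06 for Reg3g, -1.31 to 0.33 for Lyz1, -0.34 to 0.59 for Ang4 and -1.91 to 0.35 for Itln1. Tumour with sex: -1.71 to 5.05 for Reg3b. Genotype with sex: -4.96 to 1.00 for Reg3b, -3.73 to 0.045 for Reg3g, -0.49 to 1.12 for Lyz1, -1.01 to 0.34 for Ang4 and -1.16 to 1.06 for Itln1. The cause was not tested.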
